A study of Mus musculus with 2 samples.

Results

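The genes of the major histocompatibility complex (MHC) and of antigen processing were followed in regulatory T (Treg) cells with and without the microRNA miR-125a. Their members were the probe sets whose annotated symbols all start with H2-, the prefix of the mouse MHC, or are 1 of 17 named genes of peptide supply, peptide loading and class II handling. The rule found 87 of the 45101 probe sets of the array, naming 50 genes, of which 34 carry the H2- prefix. Of the 87, 12 named several H2- genes at once, because the genes are close relatives. Psme2 was the 1 named gene without a member probe set, since its probe set also named Psme2b.

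The cells were CD4+CD25hi Treg cells from the spleens of mice aged 6 to 8 weeks, enriched on magnetic beads and then sorted by flow cytometry. The wild-type group was 1 pool of RNA from several wild-type littermates, and the miR-125a-deficient group 1 pool from several miR-125a KO mice. The mice carried no treatment in the labels, and the number of mice in a pool, the strain and the design of the deleted allele are not given in the sources used here. Each pool was read on 1 Affymetrix short-oligonucleotide array of the mouse genome, so no test between genotypes exists, and every difference below is between these 2 pooled RNA samples. Because whole RNA was measured, fewer cells expressing a gene and less of its RNA per cell cannot be told apart.

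Class I molecules show peptides from inside the cell to CD8 T cells. They consist of a heavy chain and the light chain B2m, and their peptides are cut by the proteasome, pumped into the endoplasmic reticulum by the transporter TAP and fitted onto the heavy chain by a loading complex. Class II molecules are pairs of alpha and beta chains that show peptides from endosomes to CD4 T cells. They are typical of B cells, dendritic cells and macrophages, and mouse T cells make little of them. Nlrc5 is the master activator of class I genes and Ciita that of class II genes, and both act on an upstream promoter module whose boxes are named X and Y.

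Values are MAS5 signals on the linear scale of the authors, on which the trimmed mean of each array was 500.0. A log2 ratio is log2 of the miR-125a-deficient over the wild-type signal, after adding a pseudocount of 16.3 to both, so a negative value means a lower signal in the miR-125a-deficient pool. Ratios were read where the mean signal was at least 62.5, the median over all probe sets, which 65 of the 87 member probe sets passed. The probe-set SD beside a ratio is the typical SD of ratios between probe sets of the same gene at that signal. It was taken from the brightest and next brightest probe set of each gene past the minimum, grouped by their mean signal. A dim probe set beside a much brighter one of its gene may thus vary more. Over 5030 genes in 10 groups of rising signal it ran from 0.38 in the dimmest group to 0.16 in the brightest, and it leaves out the variation between mice. The signal of 1 probe set is not compared with that of another as a level of RNA, since each has its own affinity. The median signal of all probe sets was 64.1 on the wild-type and 62.4 on the miR-125a-deficient array. Of the markers that define the sorted cells, Cd4 read 715 and 641 (wild-type value first, here and below), Il2ra, which encodes CD25, 15390 and 18551, and Foxp3, the factor that defines Treg cells, 1631 and 694. Each of these markers was read on the brightest probe set that names it alone.

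The promoters of 6 members are shown because the text turns on their genes, the classical class I heavy chains on one side and the class II chains and the H2-O chains on the other. Promoter sequences, 250 bases before to 50 bases after the annotated start, were found for 34 of the 50 genes and come from RefSeq, build GRCm38.p6. Those of H2-Ab1, Tap2 and Nlrc5 were not among them. Capitals mark TGANG followed 14 to 26 bases later by ATTGG, letters found in the X and Y boxes, and GGGNATTCC, letters bound by NF-kappaB factors. For the counts below both motifs were searched on both strands. In the sequences shown, TGANG with ATTGG is marked on the printed strand only, and where TGANG matched at overlapping positions all matches are in capitals.

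H2-K1 (chr17:34000298-34000597, minus strand): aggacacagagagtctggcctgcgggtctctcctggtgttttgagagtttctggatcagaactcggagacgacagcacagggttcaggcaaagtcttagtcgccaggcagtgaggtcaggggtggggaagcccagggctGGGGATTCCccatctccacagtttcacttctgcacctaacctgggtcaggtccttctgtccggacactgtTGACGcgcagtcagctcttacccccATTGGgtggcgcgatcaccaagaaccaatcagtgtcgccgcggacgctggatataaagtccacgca

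H2-D1 (chr17:35262844-35263143, plus strand): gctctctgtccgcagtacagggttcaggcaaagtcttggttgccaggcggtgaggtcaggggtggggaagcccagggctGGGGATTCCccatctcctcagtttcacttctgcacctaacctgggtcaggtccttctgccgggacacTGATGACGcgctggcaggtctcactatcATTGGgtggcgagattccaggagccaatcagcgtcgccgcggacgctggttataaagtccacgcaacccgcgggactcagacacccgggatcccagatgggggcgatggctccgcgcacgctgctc

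H2-Eb1 (chr17:34305617-34305916, plus strand): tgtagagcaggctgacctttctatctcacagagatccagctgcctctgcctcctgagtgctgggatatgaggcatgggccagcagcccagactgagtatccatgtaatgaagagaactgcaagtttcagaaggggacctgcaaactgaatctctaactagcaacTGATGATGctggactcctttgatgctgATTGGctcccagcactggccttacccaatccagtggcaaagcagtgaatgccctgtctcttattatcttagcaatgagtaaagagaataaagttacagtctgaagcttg

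H2-Aa (chr17:34287774-34288073, minus strand): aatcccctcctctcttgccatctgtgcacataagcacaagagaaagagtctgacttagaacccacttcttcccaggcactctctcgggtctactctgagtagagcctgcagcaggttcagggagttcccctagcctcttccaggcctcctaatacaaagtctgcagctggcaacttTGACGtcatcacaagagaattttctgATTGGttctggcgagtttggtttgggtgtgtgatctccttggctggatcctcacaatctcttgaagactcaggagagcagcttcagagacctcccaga

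H2-Oa (chr17:34092129-34092428, plus strand): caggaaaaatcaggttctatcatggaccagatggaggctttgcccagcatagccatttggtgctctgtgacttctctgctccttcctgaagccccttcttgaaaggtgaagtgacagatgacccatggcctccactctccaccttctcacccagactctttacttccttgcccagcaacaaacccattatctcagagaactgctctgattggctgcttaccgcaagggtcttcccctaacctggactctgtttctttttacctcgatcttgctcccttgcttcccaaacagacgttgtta

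H2-Ob (chr17:34238655-34238954, plus strand): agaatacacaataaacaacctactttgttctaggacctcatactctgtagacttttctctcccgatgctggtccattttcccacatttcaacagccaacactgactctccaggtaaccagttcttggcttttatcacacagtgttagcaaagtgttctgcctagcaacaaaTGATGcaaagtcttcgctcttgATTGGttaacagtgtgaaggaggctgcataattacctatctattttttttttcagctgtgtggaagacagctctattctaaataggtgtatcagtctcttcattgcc

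The paired X and Y letters were present in 13 of the 34 member promoters (38.2%) and in 854 of 27025 promoters of all genes (3.16%). Among the class II pathway genes 6 of 9 held the pair, and among the class I heavy chain genes 6 of 14. It was in none of the 5 peptide loading and 4 immunoproteasome promoters of this window. GGGNATTCC was in 4 member promoters (11.8%), those of H2-K1, H2-D1, H2-Q6 and H2-Q7, and in 205 of all promoters (0.759%). The H2-K1 and H2-D1 promoters were identical at 206 of 228 locally aligned positions (90.4%). In H2-Ob the pair starts at position -79 with 17 bases between its parts, in H2-Aa at -74 with 21 bases between. H2-Oa held 1 ATTGG but no TGANG at the searched distance. These matches describe letters in the windows.

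**Figure D1:**
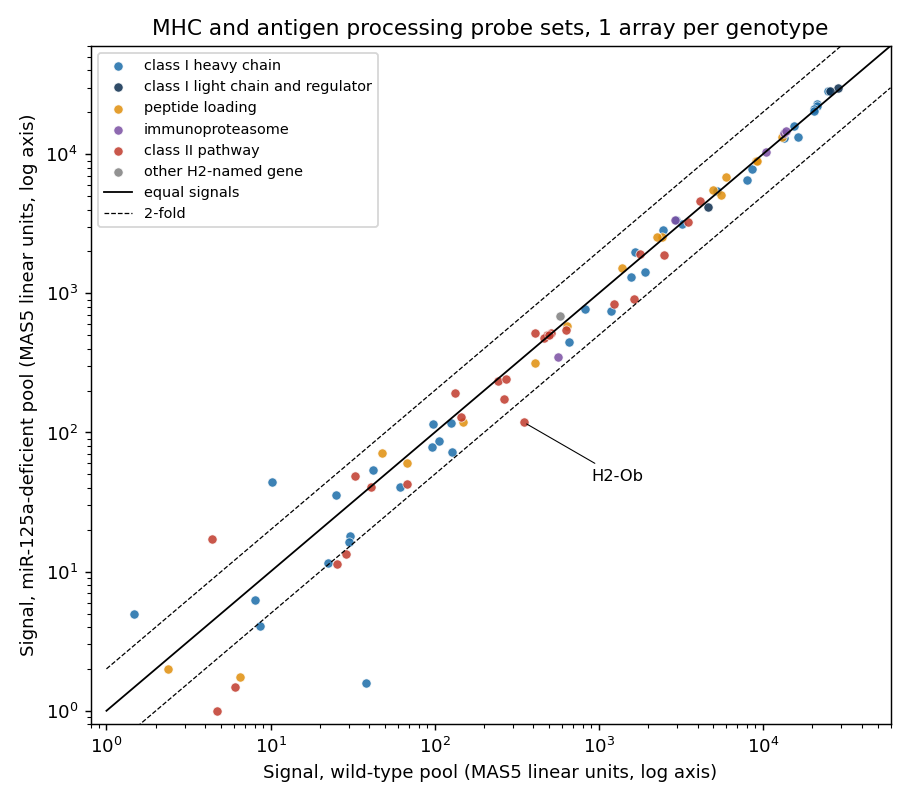
Signals of all 87 member probe sets in the wild-type pool (horizontal, MAS5 linear units, log axis) and the miR-125a-deficient pool (vertical, same units), 1 array each, coloured by role; the solid line marks equal signals and the dashed lines 2-fold. The bright probe sets lie along the line, H2-Ob at 348 and 119 lies beyond 2-fold, and the wide scatter at lower left is that of probe sets below the signal minimum.

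As a group the MHC and antigen processing genes read nearly alike in both pools. Of the 65 member probe sets past the minimum, 0 had a signal 2-fold or more higher without miR-125a, 1 was 2-fold or more lower and 64 lay between. Of all non-control probe sets past the minimum, 1.04% were 2-fold or more higher and 1.52% were 2-fold or more lower, so the member share of 1.54% lower is near the background. At 1.5-fold the members gave 0 higher and 5 lower, against a background of 4.62% and 7.75%. The median log2 ratio was -0.03 for the members, with 30 above and 35 below 0, and -0.03 for all non-control probe sets. The median size of the ratio, without its sign, was 0.15 for the members and 0.23 for all. The members held more bright probe sets, 39 of 65 at a mean signal of 1000 or more, against 7015 of 22491 for all. Sizes at like signals are given further below. The ratio lay within 1 probe-set SD of 0 for 43 of the 65 (66.2%) and beyond 2 of them for 6 (9.23%), against 57.6% and 13.7% of all non-control probe sets.

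The classical class I heavy chains, which present peptide to CD8 T cells, had strong signals in both pools. For H2-K1 the brightest probe set read 24870 and 28465, a log2 ratio of 0.19 with a probe-set SD of 0.16. The next 2 read 20577 and 21240, a ratio of 0.05, and 13430 and 13176, a ratio of -0.03. So 3 of its 4 probe sets stayed close to equal. The dimmest went the other way, at 1188 against 750 and a ratio of -0.65. All 4 have names ending in _x_at, which can match several transcripts, so none is certain to read H2-K1 alone.

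H2-D1 was read by 6 probe sets past the minimum, whose signals differed by up to 230-fold between probe sets and whose ratios did not share a sign, with 3 above and 3 below 0. Its brightest probe set read 21399 and 22844, a ratio of 0.09. The highest ratio was 0.19, at 2975 and 3392, and the lowest -0.30, at 8023 and 6497. A probe set naming both H2-K1 and H2-D1 also had -0.30, at 16396 and 13299. The 11 probe sets of H2-K1 and H2-D1 together had a median of -0.03, equal to that of all probe sets to 2 decimals.

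B2m, the light chain shared by the class I molecules, was read by 2 probe sets that nearly coincided. They read 28627 and 29841, a log2 ratio of 0.06, and 25813 and 28683, a ratio of 0.15, both with a probe-set SD of 0.16. Nlrc5, the activator of class I genes, read 4612 and 4158, a ratio of -0.15 (probe-set SD 0.16). Neither gene differed by more than the spread between probe sets.

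Non-classical class I genes, which are less variable and often bind restricted sets of peptides or none, had 13 probe sets past the minimum, with a median of -0.04, 5 above and 8 below 0. The brighter H2-T23 probe set, which also names the pseudogene H2-T-ps, read 20371 and 20329. H2-T23 encodes Qa-1, the ligand of the inhibitory receptor CD94/NKG2A, and its dimmer probe set read 3230 and 3141, a ratio of -0.04. H2-Q9 and H2-Q7, which encode Qa-2 and share a probe set, read 15454 and 15907, a ratio of 0.04. These probe sets differed little between the pools.

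Among other Q genes, the probe set of H2-Q6 and H2-Q8 had a ratio of 0.06, at 5245 and 5459, while one that also names H2-Q4 had -0.42 (probe-set SD 0.21), at 1919 and 1427. H2-Q2 read 662 and 449, a ratio of -0.54 with a probe-set SD of 0.27. H2-Q5 read 1567 and 1320, a ratio of -0.24, and H2-Q10, a secreted class I chain, 1659 and 1995, a ratio of 0.26. The Q genes therefore lay on both sides of 0, and the probe sets that share H2-Q6 and H2-Q8 did not give the same ratio. A dim probe set naming H2-Q5 and H2-K1 read 96.0 and 78.4, a ratio of -0.25.

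H2-M3, which presents formylated bacterial peptides, read 2466 and 2875, a log2 ratio of 0.22. H2-T9, H2-T22 and H2-T10, of which T22 and T10 are ligands of some gamma delta T cell receptors, share 2 probe sets. The brighter read 8637 and 7870, a ratio of -0.13, and the dimmer 128 and 72.9, a ratio of -0.69 with a probe-set SD of 0.38. The dim probe set thus had the lowest ratio of the class I heavy chains. H2-T24 read 97.2 and 116 and H2-Bl 125 and 116, with ratios of 0.22 and -0.09, both within a probe-set SD of 0.38.

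**Figure D2:**
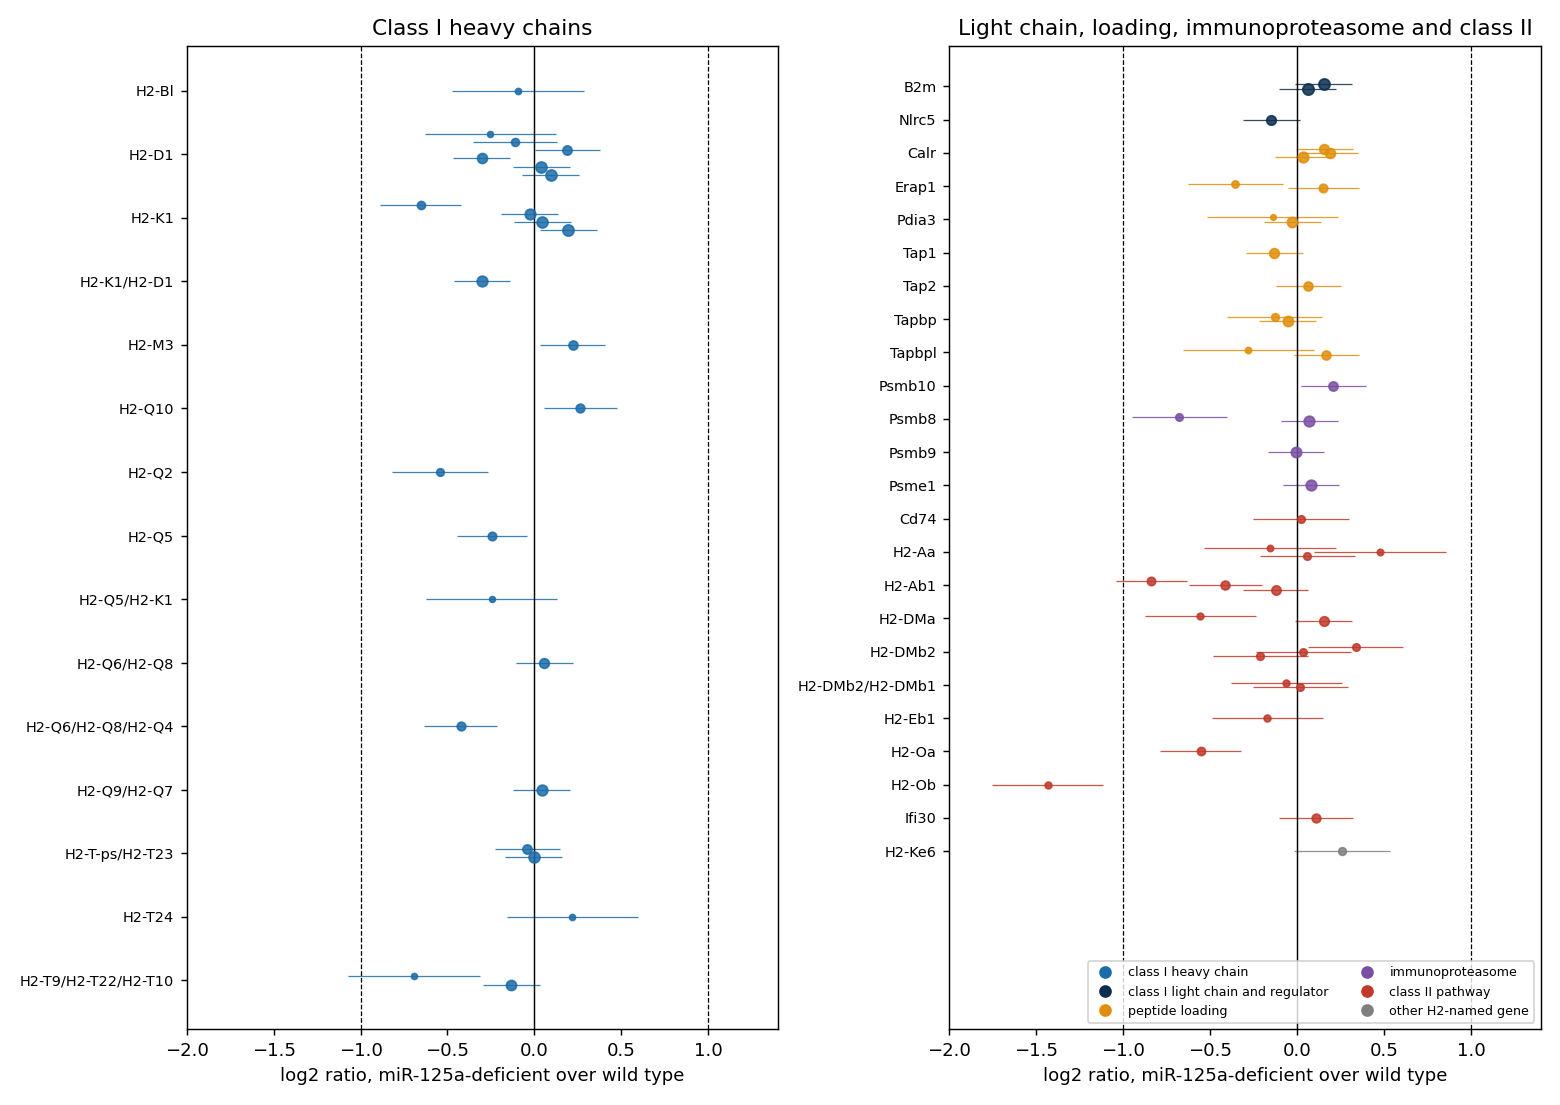
The log2 ratio of the miR-125a-deficient over the wild-type signal (horizontal) for the 65 member probe sets past the signal minimum, by gene, with class I heavy chains on the left and the other roles on the right; points grow with mean signal, bars are 1 probe-set SD to each side and dashed lines mark 2-fold. H2-Ob, at -1.43, is the 1 point beyond 2-fold, and most larger points lie close to 0.

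The genes that load peptide onto class I had 13 probe sets past the minimum, 0 at 2-fold in either direction and ratios from -0.36 to 0.19. Tap1 and Tap2, the chains of the peptide transporter, read 5590 and 5101 for Tap1, a ratio of -0.13, and 2428 and 2537 for Tap2, a ratio of 0.06. Tapbp, which encodes tapasin, the bridge between TAP and the heavy chain, read 9270 and 8927 on its brighter and 637 and 581 on its dimmer probe set, with ratios of -0.05 and -0.13. All of these lay within 1 probe-set SD of 0. Tapbpl, a tapasin relative that edits peptides, had 0.17 on the brighter probe set, at 2259 and 2541, and -0.28 on the dimmer, at 149 and 120.

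Calr, the chaperone calreticulin, had 3 probe sets, all slightly above 0, the lowest of which turned below 0 with loess scaling. They read 13009 and 13318, 6003 and 6849, and 4968 and 5544, with log2 ratios of 0.03, 0.19 and 0.16 and a probe-set SD of 0.16. Pdia3, a disulphide isomerase of the loading complex, read 9146 and 8973 on its brighter probe set, a ratio of -0.03, and 68.2 and 60.3 on the other. Loading chaperones thus differed by little. Erap1, which trims peptides in the endoplasmic reticulum, had 0.15 on the brighter probe set, at 1379 and 1532, and -0.36 on the dimmer, at 409 and 316.

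The inducible subunits that turn the proteasome into the immunoproteasome, which favours peptides that class I binds, also stayed close to equal on their brighter probe sets. Psmb8 read 13536 and 14202, a ratio of 0.07, Psmb9 10418 and 10372, a ratio of -0.01, and Psmb10 2914 and 3368, a ratio of 0.21 with a probe-set SD of 0.19. The second probe set of Psmb8 had -0.68 (probe-set SD 0.27), at 564 and 347, opposite in sign to the brighter one. Psme1, a subunit of the activator cap PA28, read 13873 and 14664, a ratio of 0.08. The probe set of Psme2b and Psme2, not counted as a member, read 10643 and 11011, a ratio of 0.05. The constitutive subunits that Psmb8, Psmb9 and Psmb10 replace had ratios of 0.35 for Psmb5, 0.15 for Psmb6 and 0.20 for Psmb7. On the brightest probe set of each gene, the inducible minus the constitutive ratio was thus -0.28, -0.15 and 0.01.

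Class II pathway genes were the group with the widest range. Of 26 probe sets 18 passed the minimum, with ratios from -1.43 to 0.48, a median of -0.09, none 2-fold or more higher and 1 lower by 2-fold or more. The 1 was H2-Ob, the beta chain of H2-O, a class II-like molecule that inhibits the peptide exchanger H2-M and is best known from B cells. It read 348 and 119, 2.70-fold lower without miR-125a once the pseudocount is added, with a log2 ratio of -1.43 and a probe-set SD of 0.32. H2-Oa, which encodes the alpha chain of the same molecule, read 1234 and 836, a ratio of -0.55 (probe-set SD 0.23). Both chains of H2-O were therefore lower in the miR-125a-deficient pool by more than 2 probe-set SDs, a distance that 13.7% of all non-control probe sets pass, and H2-Oa by less than 2-fold. A further probe set that names H2-Ob together with a gene model, and so is no member, had a ratio of -0.58 with a probe-set SD of 0.38, at 103 and 63.7.

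The chains that present peptide went both ways. H2-Ab1, the beta chain of I-A, had 3 probe sets, all below 0, at 3523 and 3236, at 2515 and 1886, and at 1630 and 903. Their log2 ratios were -0.12, -0.41 and -0.84, with probe-set SDs of 0.19, 0.21 and 0.20. The size therefore depends on the probe set, and the brightest lay within 1 probe-set SD of 0. H2-Aa, the alpha chain that pairs with it, had 0.06 on the brightest probe set, at 482 and 503, and 0.48 and -0.16 on 2 dim ones, at 134 and 193 and at 145 and 129. The alpha chain therefore did not follow the beta chain on its brightest probe set. H2-Eb1, the beta chain of I-E, read 273 and 241, a ratio of -0.17 within its probe-set SD of 0.32.

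H2-M, which exchanges peptides on class II, is encoded by H2-DMa and the DMb genes. H2-DMa read 4133 and 4596 on its brighter probe set, a ratio of 0.15, and 264 and 174 on the dimmer, a ratio of -0.56. For H2-DMb2 the ratios were 0.34, 0.04 and -0.21, at 407 and 519, 463 and 475, and 635 and 546. The H2-M chains thus scattered around 0, and their 7 probe sets had a median of 0.02. Both H2-O chains, each read by a single member probe set, were below -0.5, and so was the dimmer H2-DMa probe set. The 2 probe sets that name H2-DMb1 and H2-DMb2 together read 497 and 504, and 245 and 234, with ratios of 0.02 and -0.06. Cd74, the invariant chain that guards the class II groove, read 510 and 518, a ratio of 0.02. Ifi30, a thiol reductase that unfolds antigens in endosomes, read 1790 and 1931, a ratio of 0.11.

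Ciita, the class II activator, was below the signal minimum on all 3 of its probe sets, so no ratio is given. They read 68.0 and 42.7, 40.7 and 40.4, and 4.69 and 1, the last being the lowest value the deposited file holds. H2-Ke6 carries the H2- prefix by its position in the MHC but encodes a hydroxysteroid dehydrogenase. It read 577 and 693, a log2 ratio of 0.26 with a probe-set SD of 0.27.

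Cells that make class II in the spleen were looked for through their markers, each read only on the brightest probe set that names it alone. Summed signals are over all measured markers of a list, past the minimum or not. Such sums weigh bright probe sets most and are not a level of RNA. Of 10 measured B cell markers 4 passed the minimum, 3 of them below 0. Of the 4, only Ighm, with a log2 ratio of -0.95, lay beyond 1 probe-set SD (0.19). Cd79b, Ebf1 and Cd22 had ratios of -0.14, -0.05 and 0.31, within probe-set SDs of 0.32, 0.38 and 0.38. The summed signal of all 10, dominated by Ighm, was 3899 and 2254. Ighm, the IgM heavy chain, read 3403 and 1754 and Cd79b, a B cell receptor chain, 229 and 205, while Ms4a1, which encodes CD20, was below the minimum at 33.7 and 10.1, as was Pax5, the B cell lineage factor, at 3.64 and 39.1. Of 10 macrophage and monocyte markers 3 passed, all below 0 and 1 by 2-fold or more. The summed signal of all 10 was 798 and 508. Csf1r, the receptor for the macrophage growth factor, read 159 and 126, Fcer1g 226 and 103 and Cd68 166 and 87.4. Of 9 dendritic cell markers 5 passed. The summed signals of all 9 were 31087 and 32947. They came mostly from Ccr7 and Irf8, which T cells also make, at 15481 and 15429 and at 13444 and 11731. Batf3, a transcription factor, was the 1 dendritic cell marker 2-fold or more higher, at 1920 and 5537 with a log2 ratio of 1.52, and Zbtb46 had 0.86 at 56.9 and 117. Itgax, which encodes CD11c, read 79.7 and 47.6. The remaining measured markers of the dendritic cell list were below the minimum. None of the 4 neutrophil markers passed, S100a8 reading 69.6 and 8.22 and Elane 32.4 and 22.1. No measured marker of these lists was at the lowest deposited value on both arrays. Of 5 CD8 T and NK cell markers 4 passed, all below 0. Their list had summed signals of 9441 and 6211, most of it from Klrd1, at 7919 and 5065. Eomes read 636 and 501 and Cd8a 435 and 295. Of the 8 T and Treg cell markers, all past the minimum, Foxp3 was 2-fold or more lower (-1.21, beside a probe-set SD of 0.20), and the other 7 lay between, from Cd3e at -0.41 to Ikzf2 at 0.45. Their summed signals were 68925 and 71200, which bright markers such as Cd3d, at 19986 and 19862, dominate. Ebf1, Cd22, Pax5, Batf3, Zbtb46, Foxp3, Cd3e and Ikzf2 were named here after their values were seen. The part of any of these cells in the values of H2-Ob, H2-Oa and H2-Ab1 was not tested.

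As a group, members with brighter signals had ratios closer to 0. The median size of the ratio was 0.13 at a mean signal of 1000 or more and 0.23 under it. Over all non-control probe sets the sizes were 0.17 and 0.26, so the gap to the members was smaller at like signals. The 39 member probe sets with a mean signal of 1000 or more had a median ratio of 0.04 and ranged from -0.84 to 0.26, with 0 at 2-fold in either direction. Of all 7015 non-control probe sets at that signal, only 25 were 2-fold or more higher and 36 lower. The 26 between the minimum and 1000 had a median of -0.15, with 18 below 0. Over all non-control probe sets the medians were 0.02 at 1000 or more and -0.06 under it, so the dimmer probe sets were lower there as well. Of the 17 class I heavy chain probe sets at 1000 or more, 9 were above and 8 below 0, and of the 8 under 1000, 7 were below 0. In the class II pathway the order was the reverse, with a median of -0.27 over 6 brighter and -0.02 over 12 dimmer probe sets. The median sizes there were 0.28 and 0.16. The brighter probe sets were those of H2-Ab1, H2-DMa, H2-Oa and Ifi30.

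**Figure D3:**
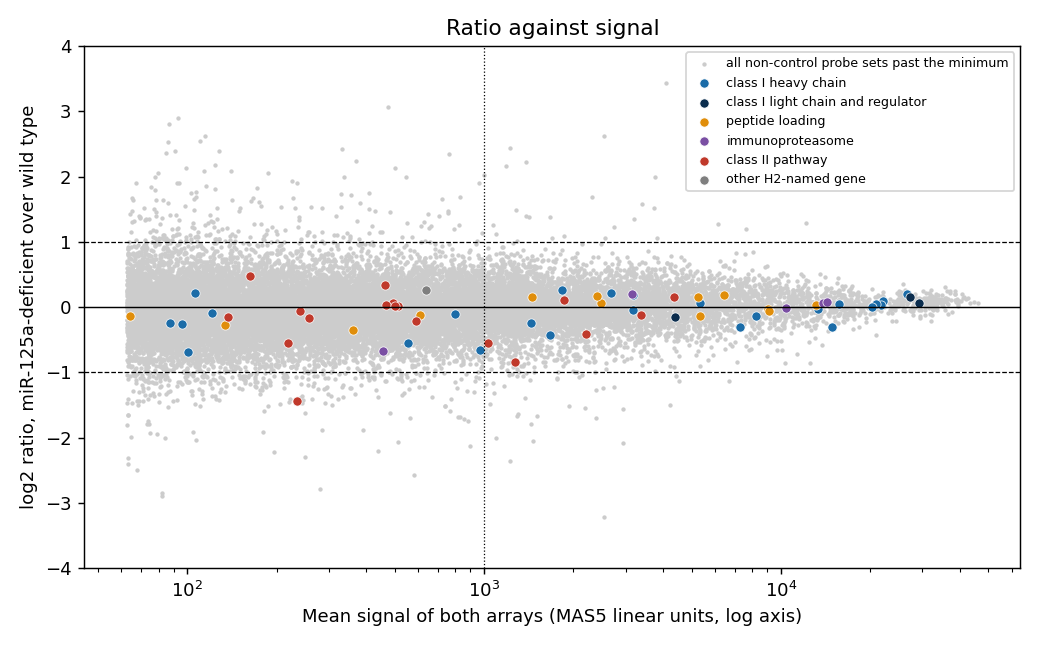
The log2 ratio (vertical) against the mean signal of both arrays (horizontal, MAS5 linear units, log axis) for all non-control probe sets past the minimum in grey and for the 65 member probe sets in colour; dashed lines mark 2-fold and the dotted line a signal of 1000. Members at 1000 or more stay between -0.84 and 0.26, and H2-Ob lies at -1.43.

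For 13 member genes read by more than 1 probe set of their own past the minimum, the agreement between probe sets could be checked. In 8 of them the probe sets had ratios of both signs, among them H2-K1, H2-D1, H2-Aa, H2-DMa and Psmb8. The widest range was that of H2-K1, 0.85 on the log2 scale, followed by Psmb8 with 0.75 and H2-Ab1 with 0.72. B2m, Calr, Pdia3, Tapbp and H2-Ab1 were the 5 whose probe sets shared a sign, although 1 probe set each of B2m, Calr and Pdia3, all close to 0, turned its sign under another array scaling. Of the 5 members at least 1.5-fold lower, 3 were probe sets with names ending in _x_at, which can match several transcripts and made up 18 of the 65. These were the dim probe sets of H2-K1 and Psmb8 and the lowest of H2-Ab1. The other 2 were H2-Ob and the dim probe set of H2-T9, H2-T22 and H2-T10, which have no such suffix. The suffix is not particular to the lower probe sets. All those of H2-K1 and most of those of H2-D1 past the minimum carry it, near-equal bright ones included.

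RefSeq names were found for 49 of the 50 genes, 38 of them on chromosome 17, which also carries Mir125a, while B2m lies on chromosome 2. In gene order H2-Ob lies between Tap2 and H2-Ab1, with ratios of 0.06 for Tap2 and -0.12 for the brightest probe set of H2-Ab1. H2-Oa lies apart from it, next among the members to H2-Ke6 and H2-DMa, whose brightest probe sets had 0.26 and 0.15. The dimmer probe sets of H2-Ab1, with -0.41 and -0.84, and of H2-DMa, with -0.56, were lower without miR-125a, so whether the genes beside H2-O share its direction depends on the probe set.

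**Figure D4:**
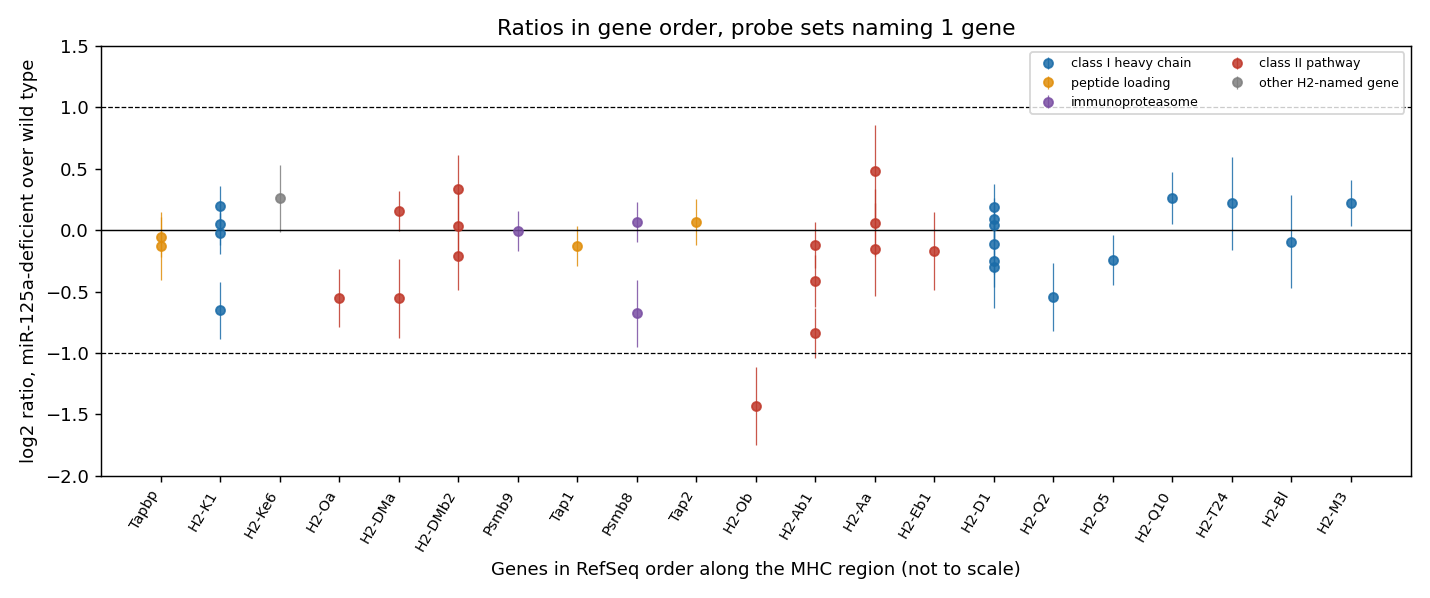
The log2 ratio (vertical) of member probe sets that name 1 gene and passed the minimum, with genes in RefSeq order along the MHC region of chromosome 17 from left to right, evenly spaced; bars are 1 probe-set SD to each side and dashed lines mark 2-fold. H2-Ob at -1.43 stands between Tap2 and H2-Ab1 and is the 1 point beyond 2-fold.

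The 22 member probe sets below the minimum read from 1 to 70.6, with 15 lower and 7 higher without miR-125a, and no ratio is read from them. They were 11 of class I heavy chains, 8 of the class II pathway and 3 of Tap1. Tap1 at 47.6 and 70.6, Ciita at 68.0 and 42.7, H2-T3 at 61.3 and 40.6, H2-M10.1 at 42.2 and 53.4 and H2-Eb2 at 32.6 and 48.3 had the highest signals on either array among these 22 probe sets, taking 1 per gene. H2-Ea, the alpha chain of I-E, was below the minimum on all 3 of its probe sets, between 1.47 and 28.9. H2-D4, at 10.2 and 43.9, H2-M9, at 22.5 and 11.6, and H2-T18, at 30.4 and 18.1, were also below it.

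Other genes of the pathway, which are no members, were counted at the same fold and minimum. Unlike the members, each was read only on the brightest probe set that names it alone. Of 41 measured of 45 listed regulators, endosomal proteases, chaperones, constitutive proteasome subunits and class I relatives, 38 passed the minimum, 0 were at 2-fold in either direction, 16 were above and 22 below 0, and the median was -0.04. The median size of their ratio was 0.20. Over all non-control probe sets, which were not limited to the brightest of each gene, it was 0.23. Of the 38, 5 lay beyond 2 probe-set SDs, a distance that 13.7% of all non-control probe sets pass. The highest were Lgmn, an endosomal protease, with a ratio of 0.53 at 106 and 160 and a probe-set SD of 0.38, and Psmb5 with 0.35 at 5555 and 7073. The lowest were Hfe, a class I relative that regulates iron uptake, with -0.80 at 222 and 121, and Ifngr1, which encodes a receptor chain for interferon gamma, with -0.79 at 3838 and 2210 and a probe-set SD of 0.19. Irf1, an interferon-induced activator of class I genes, had -0.19 at 5475 and 4784, and Rfx5, a subunit of the complex that binds the X box, -0.02. Ctss, the protease that removes the invariant chain from class II, had -0.57 at 6429 and 4315 (probe-set SD 0.16). Irf1, Rfx5 and Ctss were named for their roles after their values were seen.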

How the data were processed

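The authors deposited log2 values of MAS5 signals, 1 column per array; MAS5 is the tool in the submitters' processing notes, which give no version. MAS5 subtracts mismatch signal and scales each array, so dim values vary widely. Detection calls were not used here. They were converted to linear signals, a pseudocount at the 25th percentile (16.3) was added, and log2 ratios were taken for each probe set in Python 3.11.15 with pandas 2.3.3. Probe sets were named by the platform annotation; 64 control probe sets were left out. With 1 array per genotype there is no test: probe sets were counted by size, at 2-fold, beside the same count over all 22491 non-control probe sets past the minimum. The number of arrays limits the precision.

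The members and lists were chosen with earlier results of these data known. Named were all member probe sets past the minimum (for genes with over 4, the brightest, highest and lowest), up to 5 below it, 2 highest and 2 lowest other pathway genes, and the first measured and 2 brightest markers of each list (B cell, dendritic cell, macrophage and monocyte, neutrophil, CD8 T and NK cell, T and Treg cell). Of the members below the minimum, the dimmer Ciita probe sets, H2-Ea, H2-D4, H2-M9 and H2-T18 were also named, outside this rule. Other scalings, pseudocounts, signal filters, probe-set choices and folds were tried. The calculation was tested on simulated data.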

Additional observations from a re-analysis of the deposited data

How the results depend on the processing

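No paired analysis was possible because each genotype has 1 pooled sample. The count of member probe sets at 2-fold, 0 higher and 1 lower, was the same under 3 other array scalings and 2 other pseudocounts, and without probe sets that match several transcripts, without those that name several genes or with 1 probe set per gene. With no filter on signal it was 1 higher and 2 lower. With a filter at the 75th percentile it was 0 lower, since H2-Ob is then left out. A fold of 1.5 gave 5 lower and a fold of 3 gave 0. The medians of all members and of the 4 roles moved by less than 1 typical probe-set SD in every alternative run, that of all members between -0.05 and 0.03. That SD belongs to single probe sets, so it is a wide limit for a median. The sign of the medians of all members, class I heavy chains, class II pathway and peptide loading turned in some alternatives, and the immunoproteasome median stayed above 0 in those run, between 0.02 and 0.11. Scaling turned the sign of 3 to 6 member ratios, the largest of them 0.062 in size on the log2 scale. All 325 recomputed ratios of single members stayed within 1 probe-set SD. The 3 array scalings moved the median of all probe sets past the minimum by 0.029 to 0.037, so this limit was lenient. The dim probe sets, near the signal minimum, limit what their ratios can show.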

Other observations

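Probe sets that name a member gene together with a gene outside the rule were kept out of every count. One naming Gm38417, H2-Q2 and H2-D1 read 86.2 in wild-type and 29.0 in deficient cells, below the minimum. One naming Gm38417, LOC547349 and H2-Bl read 68.5 and 65.6, and one naming Ifi30 and Pik3r2 28.7 and 47.6.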
